A study of Mus musculus with 6 samples.

Results

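Interferon-stimulated genes are the genes that a cell switches on when an interferon binds its receptor. A list of 46 such genes, responsive to type I interferon, to interferon gamma or to both, was looked up by gene symbol in the deposited RNA-seq table, and all 46 were found among its 38924 gene rows. The table comes from naive CD4+ T cells taken from the spleens of C57 BL/6 mice and grown for 72 h under Th17 conditions, that is, with IL-23, IL-6 and TGFb1 beside antibodies to CD28 and CD3 that stand in for antigen. The treated cultures received CX-4945, an inhibitor of the protein kinase CK2 also known as silmitasertib, at a dose that the labels write as 2 mM, and the control cultures received its solvent, DMSO. That unit is high for this compound in cell culture and could not be checked here, so the dose is uncertain. Each group had 3 libraries of bulk RNA, numbered 2, 4 and 6 in the table for CX-4945 and 1, 3 and 5 for DMSO, and values are given below in that library order. The replicates are called biological in the design text, but nothing says that they came from different animals. A p-value here therefore covers the variation among these 6 cultures and no more.

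Type I interferons signal through the receptor chains encoded by Ifnar1 and Ifnar2 and the kinases Jak1 and Tyk2. These activate STAT proteins such as Stat2, which join Irf9 in a complex that binds the interferon-stimulated response element (ISRE). Interferon gamma signals through Ifngr1, Ifngr2, Jak1 and Jak2 to STAT dimers, which bind the gamma-activated sequence (GAS). The products block viral replication, sense foreign nucleic acid, mark intracellular pathogens or feed back on the pathway itself, and in T cells they also accompany activation. CX-4945 acts on kinase activity rather than on a gene, and kinase activity was not measured here, so no single transcript checks the labels.

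Library totals ranged from 22178614 to 26148189 uniquely placed exon reads, and levels are counts per 1e6 reads (CPM). A gene without a read could be present at up to 3 reads, or 0.115 to 0.135 CPM, a limit for counting error only. The first principal component of log2 CPM over all genes tested held 83.6% of the variance and separated the groups. On the second, which held 6.84%, CX-4945 library 6 and DMSO library 5 lay at one end and DMSO library 3 and CX-4945 library 4 at the other. All 12 CD4 T cell markers were detected well above the filter, with summed levels of 3793 to 3891 CPM in CX-4945 libraries and 5334 to 5552 CPM in DMSO libraries, and 8 of them were lower with CX-4945. In bulk RNA, fewer cells of a type and less RNA per cell cannot be told apart.

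RefSeq promoter windows of assembly GRCm38.p6, which run from 250 bases before to 50 bases after a transcription start, were matched by symbol for 35 of the 46 genes. The ISRE core was searched as GAAA followed, after 2 bases of any kind, by GAAA again and, for the other strand, with TTTC in both places. The GAS element was searched as TTCNNNGAA, which reads the same on both strands. An ISRE core lay in a window of 20 of the 35 genes (57.1%), against 3.99% of the 27025 genes in the promoter table. A GAS element lay in a window of 12 of the 35 (34.3%), against 9.55% of all genes. Counted per window, 22 of the list's 44 windows held an ISRE core, against 3.44% of all 32851 windows. The motifs shared bases in Bst2 and Ifitm3.

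The windows below are from the first listed start of each of 6 genes, which rose, fell or had too few reads for the test. Each window shows the 120 bases before that start, 5′ to 3′ on the gene's own strand. Capitals mark the ISRE core in the first 5 and the GAS element in Irf1. In order, they lie at chr4:156200819-156200938 (minus strand), chr19:34640769-34640888 (plus), chr15:77728952-77729071 (plus), chr7:140955962-140956081 (minus), chr3:142620543-142620662 (plus) and chr11:53769894-53770013 (plus).
Isg15: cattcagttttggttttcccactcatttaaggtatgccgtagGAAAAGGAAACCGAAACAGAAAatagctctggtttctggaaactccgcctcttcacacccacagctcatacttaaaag
Ifit1: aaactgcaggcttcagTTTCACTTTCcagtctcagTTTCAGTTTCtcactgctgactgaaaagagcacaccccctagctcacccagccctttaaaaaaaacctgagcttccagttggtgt
Apol9b: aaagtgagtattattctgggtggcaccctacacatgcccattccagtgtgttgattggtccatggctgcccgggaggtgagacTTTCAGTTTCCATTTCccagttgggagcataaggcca
Ifitm2: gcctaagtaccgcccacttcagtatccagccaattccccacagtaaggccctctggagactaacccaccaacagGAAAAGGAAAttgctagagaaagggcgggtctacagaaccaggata
Gbp2: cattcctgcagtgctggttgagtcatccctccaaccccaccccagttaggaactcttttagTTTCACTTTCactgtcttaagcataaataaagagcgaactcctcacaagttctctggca
Irf1: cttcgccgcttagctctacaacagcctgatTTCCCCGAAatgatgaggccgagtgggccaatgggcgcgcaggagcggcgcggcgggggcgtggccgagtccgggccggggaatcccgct

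Genes of every kind of call held an ISRE core. It was present in 4 of 12 matched genes that rose with CX-4945, in 4 of 9 that fell, in 8 of 9 that did not pass the test and in 4 of 5 that had too few reads for it, and these shares were not tested against each other. Isg15 carries 3 overlapping cores and rose, while Ifitm2 and Gbp2 carry 1 each and fell. All 7 matched guanylate-binding and immunity-related GTPase genes held an ISRE core, and 0 of the 4 matched transcription regulators did. A match is a string of letters and not a measured binding site, and a window without one says nothing of the factor.

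Of the 46 genes, 38 had enough reads to be tested with edgeR's quasi-likelihood test, and 8 did not. After Benjamini-Hochberg adjustment over all 12502 genes tested, at a threshold of 0.05, 15 of the 38 rose with CX-4945 and 11 fell. In the whole table, 30.6% of genes rose and 31.3% fell, so 61.9% passed in one direction or the other, and the 26 of 38 counted here were near that background. The median log2 fold change of the 38 was 0.03, against -0.0029 over all genes tested. The groups did not overlap for 25 of the 38 genes, against 69.7% of all genes tested. All CX-4945 libraries lay above all DMSO libraries for 15 genes, those that rose (35.0% in the whole table). All lay below for 10 genes (34.8%), namely Ifitm3 and 9 of the 11 that fell, while Isg20 and Dhx58 overlapped.

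The size of the changes differed by direction and by level. Of the 38 genes, 11 rose at least 2-fold, against 4.22% of all genes tested, and 2 fell at least 2-fold, against 8.79%. Among the 11 genes with a mean under 5 CPM, 9 rose and 1 fell, whereas 18.0% and 28.8% of all genes at that level did. Among the 27 genes at 5 CPM or more, 6 rose and 10 fell, against 34.4% and 32.0% of all such genes. Genes of low level passed the filter only where a group had reads enough: Oas2, Oasl1 and Oasl2 had under 10 reads in every DMSO library and were tested because of their reads with CX-4945. Apol9a had under 10 reads in DMSO library 5 and also needed its reads with CX-4945. The counts of 9 that rose at low level and of 11 that rose at least 2-fold include these genes. Those counts are therefore not independent of the filter, and no conclusion is drawn from them.

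**Figure D1:**
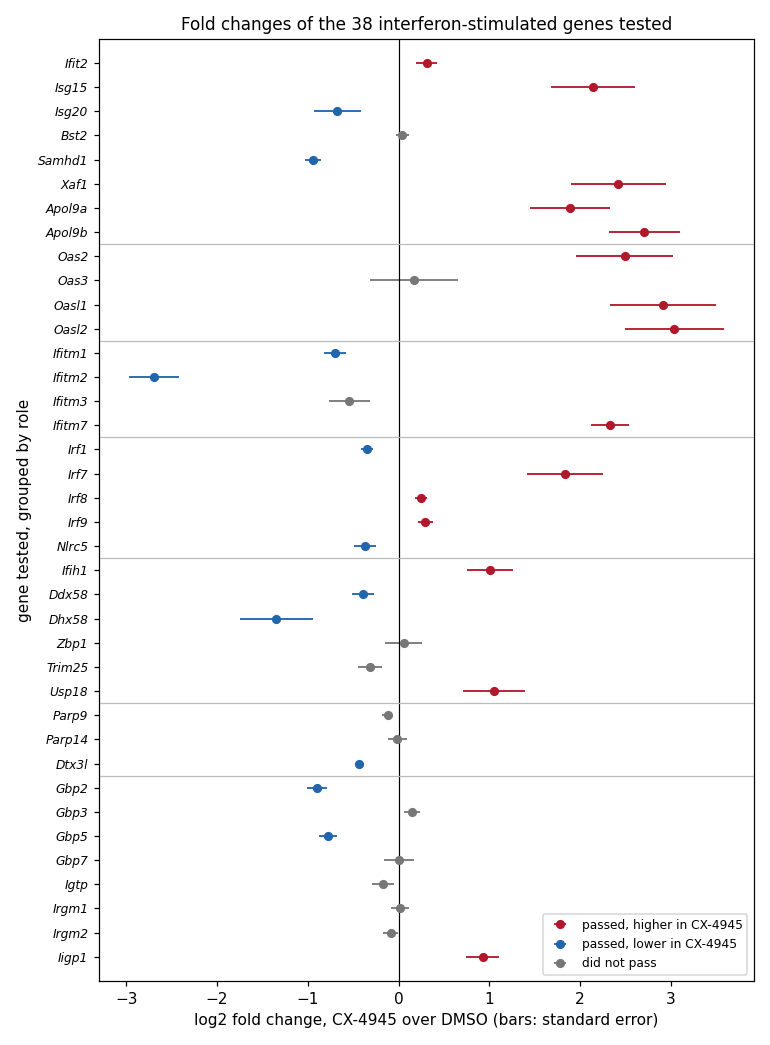
Log2 fold change, CX-4945 over DMSO, of the 38 interferon-stimulated genes tested, grouped by role from effectors at the top to GTPases at the bottom. Points are edgeR estimates from 3 libraries a group, bars are standard errors, and colours give the call. Oasl2 (3.04), Oasl1 (2.92) and Apol9b (2.71) lie farthest to the right and Ifitm2 (-2.70) farthest to the left.

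Per kilobase of exon, the list spanned a wide range of levels. Gbp2 had the highest level in both groups, at 347 RPKM with CX-4945 and 649 RPKM with DMSO, followed by Samhd1 at 89.8 RPKM with CX-4945 and 172 RPKM with DMSO. Bst2 and Gbp5 came next with CX-4945, at 73.0 and 55.1 RPKM, and in the opposite order with DMSO, where Gbp5 had 94.7 and Bst2 71.0 RPKM. Ifitm2 had rank 19 with CX-4945 at 6.44 RPKM and rank 5 with DMSO at 42.2 RPKM. Isg15 had 5.35 RPKM with CX-4945 and 1.22 RPKM with DMSO, and Ifi44, at 0.0503 RPKM with CX-4945 and no read with DMSO, was the lowest. The genes that moved up from the bottom of the order, such as Apol9b, Isg15, Ifitm7, Oasl1 and Oasl2, thus remained far below Gbp2 and Samhd1 in both groups.

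Among the antiviral effectors, 8 of 15 were tested, 5 rose and 2 fell, with a median log2 fold change of 1.10 over the 8 (30.6% of all genes tested rose and 31.3% fell). Of the 5, Apol9a passed the filter only with the help of its CX-4945 reads. Isg15, the ubiquitin-like protein that is joined to newly made and viral proteins, had 3.47, 1.90 and 6.78 CPM in the CX-4945 libraries, against 0.794, 0.793 and 1.19 CPM in the DMSO libraries. All CX-4945 libraries lay above all DMSO libraries, and library 6 was the highest and library 4 the lowest. The mean was 4.05 ± 2.49 CPM with CX-4945 and 0.925 ± 0.227 CPM with DMSO (SD, n = 3 each), a log2 fold change of 2.14 ± 0.46 (SE, adjusted p = 0.0042). Without CX-4945 library 6 it was 1.54, with an adjusted p of 0.00504.

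Xaf1, which binds the apoptosis inhibitor XIAP and favours cell death, had 3.67, 1.64 and 7.23 CPM with CX-4945, against 0.794, 0.877 and 0.679 CPM with DMSO. The order of the treated libraries was that of Isg15, and the groups did not overlap. Its log2 fold change was 2.42 ± 0.52 (SE, adjusted p = 0.00397), and 1.76 without CX-4945 library 6 (adjusted p = 0.00469). Ifit2, a member of the family that binds viral RNA and the initiation factor eIF3, showed no such spread, with 12.7, 12.3 and 12.2 CPM with CX-4945, against 10.2, 11.4 and 8.48 CPM with DMSO. Its rise was small, at a log2 fold change of 0.31 ± 0.12 (SE, adjusted p = 0.0476), and the call was lost on leaving out any library but DMSO 3 (adjusted p 0.0841 to 0.125), with DESeq2 (0.0590), with no filter (0.0570) and with 5 CPM required in 3 libraries (0.0533).

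Apol9a and Apol9b, neighbouring apolipoprotein L genes of chromosome 15 that interferon induces in mice, rose with the opposite order of libraries. Apol9b had 15.8, 18.6 and 9.28 CPM with CX-4945, against 1.76, 3.72 and 1.19 CPM with DMSO, so that libraries 6 and 5 were the lowest of their groups. Its log2 fold change was 2.71 ± 0.39 (SE, adjusted p = 0.00054), and 3.30 without DMSO library 3. Apol9a had 2.42, 2.96 and 1.53 CPM with CX-4945, against 0.501, 1.09 and 0.254 CPM with DMSO, with a log2 fold change of 1.89 ± 0.44 (SE, adjusted p = 0.00594) and of 2.58 without DMSO library 3.

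The pair is near-identical in sequence, and reads placed at more than 1 locus are not in these counts, so their separate levels are uncertain. The authors' deposited table gives Apol9b a mean of 15.1 RPKM with CX-4945 and 1.89 RPKM with DMSO, and Apol9a 2.40 RPKM with CX-4945 and 0.585 RPKM with DMSO. The summed level of 9 macrophage and monocyte markers had the same order of libraries, with 31.0, 36.5 and 19.3 CPM with CX-4945, against 21.7, 22.9 and 15.5 CPM with DMSO. Of these markers, 6 were tested, of which Cd68 rose and Mrc1 fell, Lyz2 was the most abundant (14.7, 20.6 and 6.89 CPM with CX-4945, against 7.86, 9.35 and 1.74 CPM with DMSO), and Marco, C1qa and C1qb had 1 to 5 reads per group. The part of such cells in the Apol9 levels was not tested.

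Samhd1, a phosphohydrolase that depletes the nucleotide pool used by viral reverse transcription, was the second most abundant gene of the list and fell. It had 784, 807 and 874 CPM with CX-4945, against 1559, 1411 and 1758 CPM with DMSO, and the groups were far apart. The log2 fold change was -0.94 ± 0.09 (SE, adjusted p = 6.9e-05), and between -1.01 and -0.85 whichever library was left out. Isg20, an exonuclease that degrades single-stranded RNA, had 1.81, 2.34 and 3.22 CPM with CX-4945, against 3.80, 3.01 and 5.05 CPM with DMSO. Its groups overlapped, and its log2 fold change of -0.68 ± 0.26 (SE, adjusted p = 0.0483) did not pass without DMSO 1, DMSO 5, CX-4945 2 or CX-4945 4 (adjusted p 0.0974 to 0.160). Bst2, the tetherin that holds budding virions at the cell surface, averaged 55.8 ± 4.57 CPM with CX-4945 and 54.2 ± 1.27 CPM with DMSO (SD, n = 3 each) and did not pass (adjusted p = 0.621).

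**Figure D2:**
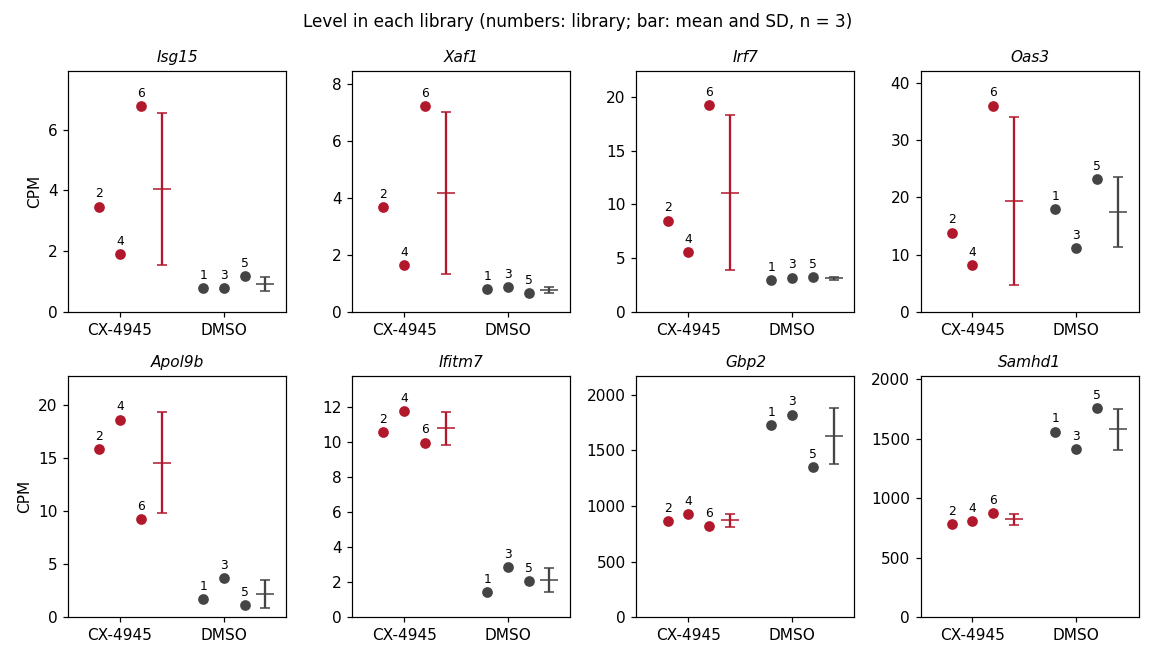
Level in CPM of 8 genes in each library, with the 3 CX-4945 libraries in red left of the 3 DMSO libraries in grey, library numbers beside the points, and mean and SD (n = 3) beside each group. Isg15, Xaf1 and Irf7 were highest in library 6, Apol9b was lowest in library 6 among the CX-4945 libraries, Ifitm7, Gbp2 and Samhd1 had narrow CX-4945 groups clear of DMSO, and the groups of Oas3 overlapped.

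The 8 genes with too few reads for the test were classical antiviral genes, and each had more reads summed over the CX-4945 libraries than over the DMSO libraries. Ifi44 had 6, 1 and 17 reads in the CX-4945 libraries, against 0 in each DMSO library. With DMSO set at 3 reads over the group, its level was 7.71-fold higher with CX-4945. That fold was 3.52 without CX-4945 library 6 and 5.13 without DMSO library 1 or 3. Such folds leave out the counting error of the CX-4945 reads, so they are not lower bounds. Rtp4, which encodes a transport protein for cell-surface receptors, had 10, 4 and 22 reads with CX-4945, against 0, 0 and 3 with DMSO. For depth, that is a ratio of 11.6 with an exact 95% interval of 3.65 to 58.7. The ratio was 7.03 without CX-4945 library 6 and 7.69 without DMSO library 1 or 3. Without DMSO library 5, which held all 3 DMSO reads, it was 7.75 with DMSO set at 3 reads. Rsad2, which encodes viperin, had 7, 3 and 13 reads with CX-4945, against 2, 0 and 1 with DMSO, a ratio of 7.39 (2.23 to 38.4), which was 4.91 without DMSO library 3 and 14.7 without DMSO library 1. These intervals cover counting error only and not the spread between cultures.

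Ifit1, the relative of Ifit2 that binds uncapped and incompletely methylated RNA ends, had 25, 8 and 39 reads with CX-4945, against 7, 8 and 9 with DMSO, a ratio of 2.89 (1.80 to 4.80). Mx1 had 46 reads over the CX-4945 libraries and 13 over the DMSO libraries, and Mx2 had 44 with CX-4945 and 14 with DMSO. Mx1 and Mx2 encode dynamin-like GTPases that trap viral particles, and Mx1 is defective in C57 BL/6 mice. Oas1a (17 reads with CX-4945 and 6 with DMSO) and Ifit3 (12 with CX-4945 and 5 with DMSO) had few reads, and both have close paralogs with which reads may be shared. All 8 genes had their highest level in library 6, and 7 of the 8 followed the order 6, 2, 4.

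When the filter on low counts was dropped, all 46 genes entered the edgeR test, and 19 rose and 12 fell, against 20.6% and 21.2% of 18324 genes. Of the 8 scarce genes, Rtp4 (adjusted p = 0.0106), Ifi44 (0.0138), Rsad2 (0.0182), Ifit1 (0.0229) and Mx1 (0.0409) then passed, and Mx2 (0.0507), Oas1a (0.0906) and Ifit3 (0.257) did not. Ifit2 no longer passed, so 14 of the 15 genes and these 5 make up the 19. At least 2-fold rises numbered 16 of 46, against 3.63% of all genes.

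In the oligoadenylate synthetase family, whose classical members sense double-stranded RNA and make a second messenger, 4 of 5 genes were tested and 3 rose. Over all genes tested 30.6% rose, but those 3, Oas2, Oasl1 and Oasl2, were tested because of their reads with CX-4945. Their count is therefore not independent of the filter. Oasl1, which in mice holds back translation of Irf7 mRNA, had 1.33, 0.575 and 2.25 CPM with CX-4945, against 0.251, 0.125 and 0.170 CPM with DMSO. Its log2 fold change was 2.92 ± 0.59 (SE, adjusted p = 0.00283). Oasl2 had 0.806, 0.751 and 1.95 CPM with CX-4945, against 0.167, 0.125 and 0.127 CPM with DMSO. The groups of both genes were apart, although the DMSO levels lay close to that of 3 reads. The log2 fold change of Oasl2, 3.04 ± 0.55 (SE, adjusted p = 0.00162), was 2.44 without CX-4945 library 6.

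Oas2 rose as well, with 1.05, 0.928 and 2.28 CPM with CX-4945, against 0.0836, 0.292 and 0.382 CPM with DMSO (log2 fold change 2.49 ± 0.53, SE, adjusted p = 0.00394). Oas3, which lies beside Oas2 on chromosome 5 and was the most abundant of the family, did not pass. It had 13.9, 8.22 and 36.0 CPM with CX-4945, against 17.9, 11.1 and 23.2 CPM with DMSO, so that library 6 lay above every DMSO library and library 4 below every one. The log2 fold change of 0.16 ± 0.49 (SE, adjusted p = 0.787) was -0.65 without CX-4945 library 6. In both groups the libraries at one end of the second principal component, 6 and 5, had the highest Oas3 level of their group.

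The IFITM genes encode small membrane proteins that hinder the fusion of virus and cell membranes, and their 4 members on the list went in different directions. Ifitm1, Ifitm2 and Ifitm3 lie close together on chromosome 7, whereas Ifitm7 lies on chromosome 16. Ifitm2 had 3.67, 2.78 and 5.65 CPM with CX-4945, against 29.1, 18.5 and 31.8 CPM with DMSO. Its mean was 6.49-fold lower with CX-4945, with a log2 fold change of -2.70 ± 0.28 (SE, adjusted p = 0.000102), the most negative of the 38. Ifitm7 had 10.6, 11.8 and 10.0 CPM with CX-4945, against 1.46, 2.88 and 2.08 CPM with DMSO. This rise, of 2.33 ± 0.21 on the log2 scale (SE, adjusted p = 6.07e-05), was nearly even across the 3 treated libraries, unlike that of Isg15. Ifitm7 overlaps the gene 2900011O08Rik in the annotation, and the strand setting of the counting is not given. The part of that gene in the Ifitm7 level was not tested.

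Ifitm1 had 20.4, 20.1 and 14.6 CPM with CX-4945, against 30.0, 28.7 and 30.7 CPM with DMSO, and fell by 0.70 ± 0.12 on the log2 scale (SE, adjusted p = 0.00142). Ifitm3 averaged 1.56 ± 0.139 CPM with CX-4945 and 2.28 ± 0.633 CPM with DMSO (SD, n = 3 each). Its groups did not overlap, yet it missed the threshold (log2 fold change -0.54 ± 0.23, SE, adjusted p = 0.0683) and passed only without DMSO library 3 (adjusted p = 0.0399). The family members are alike in sequence, and reads shared between them are not counted. In the authors' deposited table the mean of Ifitm2 is 5.89 RPKM with CX-4945 and 38.1 RPKM with DMSO, and that of Ifitm7 is 3.81 RPKM with CX-4945 and 0.702 RPKM with DMSO.

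All 5 transcription regulators passed, 3 higher and 2 lower, in a table where 61.9% of genes passed. Irf7, the factor that amplifies type I interferon production, had 8.51, 5.57 and 19.2 CPM with CX-4945, against 2.97, 3.21 and 3.22 CPM with DMSO. The DMSO libraries were close together and the CX-4945 libraries were 3.45-fold apart, again with 6 the highest and 4 the lowest. The log2 fold change was 1.83 ± 0.42 (SE, adjusted p = 0.00544), and 1.17 without CX-4945 library 6 (adjusted p = 0.00203). Irf7 overlaps Phrf1 in the annotation, and the strand setting of the counting is not given in the sources used here. The same limit holds for Irf9 with Rnf31, Irf8 with Gm20388, Irf1 with Gm17334, Dhx58 with Gm11547 and Oasl1 with Gm13822.

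The other four regulators changed less in size. Irf9, the DNA-binding subunit of the type I interferon complex, averaged 88.0 ± 7.13 CPM with CX-4945 and 71.8 ± 6.09 CPM with DMSO (SD, n = 3 each), a log2 fold change of 0.29 ± 0.08 (SE, adjusted p = 0.0138). Irf8, a factor of lymphoid and myeloid cells, averaged 84.8 ± 1.59 CPM with CX-4945 and 71.7 ± 5.92 CPM with DMSO (SD, n = 3 each). Its log2 fold change of 0.24 ± 0.07 (SE, adjusted p = 0.0126) did not pass without DMSO library 1 (adjusted p = 0.0588).

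Irf1, the regulator that interferon gamma induces and whose promoter shows the GAS element above, fell. It had 68.5, 63.6 and 71.5 CPM with CX-4945, against 84.5, 82.4 and 92.3 CPM with DMSO (log2 fold change -0.35 ± 0.07, SE, adjusted p = 0.00225). Nlrc5, the transactivator of MHC class I genes, had 61.9, 50.3 and 74.5 CPM with CX-4945, against 77.1, 82.9 and 82.0 CPM with DMSO, with the treated libraries in the order of Isg15. Its log2 fold change of -0.37 ± 0.12 (SE, adjusted p = 0.0288) was lost without DMSO 1, DMSO 5, CX-4945 2 or CX-4945 4 (adjusted p 0.0566 to 0.0790).

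The 3 RNA helicases that sense viral RNA in the cytosol split. Ifih1, which encodes Mda5, the sensor of long double-stranded RNA, had 4.76, 3.14 and 5.73 CPM with CX-4945, against 2.42, 2.67 and 1.70 CPM with DMSO, and rose by 1.01 ± 0.26 on the log2 scale (SE, adjusted p = 0.00893). Ddx58, which encodes Rig-I, the sensor of RNA with a triphosphate end, had 27.3, 26.6 and 37.0 CPM with CX-4945, against 40.9, 38.5 and 39.7 CPM with DMSO. It fell by 0.39 ± 0.12 on the log2 scale (SE, adjusted p = 0.0216), a call lost without DMSO 1, CX-4945 2 or CX-4945 4 (adjusted p 0.0716 to 0.0853).

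Dhx58, which encodes Lgp2, the regulator of the other 2 helicases, had 9.23, 8.75 and 21.3 CPM with CX-4945, against 30.5, 20.4 and 49.8 CPM with DMSO. Library 6 lay above DMSO library 3, so the groups overlapped, and both groups had the order seen for Oas3. The log2 fold change of -1.35 ± 0.40 (SE, adjusted p = 0.0182) did not pass without DMSO 5, CX-4945 2 or CX-4945 4 (adjusted p 0.0554 to 0.0683).

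Usp18, the protease that removes Isg15 from its targets and blocks signalling at Ifnar2, had 3.87, 2.12 and 6.10 CPM with CX-4945, against 1.92, 1.84 and 2.12 CPM with DMSO. It rose by 1.05 ± 0.34 on the log2 scale (SE, adjusted p = 0.0272), and missed the threshold without DMSO 1, DMSO 3, CX-4945 2 or CX-4945 6 (adjusted p 0.0521 to 0.0839). Zbp1, a sensor of left-handed nucleic acid, had 35.2, 36.9 and 46.9 CPM with CX-4945, against 39.7, 48.4 and 26.6 CPM with DMSO, and did not pass (adjusted p = 0.826). Trim25, the ubiquitin ligase that acts on the Rig-I pathway, averaged 116 ± 21.2 CPM with CX-4945 and 144 ± 15.3 CPM with DMSO (SD, n = 3 each, adjusted p = 0.0592), and it passed, lower, without DMSO 3 (0.0256), without CX-4945 6 (0.0045), with DESeq2 (0.0292) and with no filter (0.0432).

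Dtx3l, a ubiquitin ligase that works as a pair with Parp9, fell in every treated library to a similar level. It had 130, 130 and 136 CPM with CX-4945, against 180, 172 and 182 CPM with DMSO, a log2 fold change of -0.43 ± 0.05 (SE, adjusted p = 0.000172). Its partner Parp9 averaged 77.0 ± 4.50 CPM with CX-4945 and 83.6 ± 3.29 CPM with DMSO (SD, n = 3 each) and did not pass (adjusted p = 0.122). The spans of the 2 genes overlap at their ends in the annotation, where reads cannot be told apart without strand. Parp14, an ADP-ribosyltransferase, was at 144 ± 20.7 CPM with CX-4945 and 145 ± 12.1 CPM with DMSO (SD, n = 3 each, adjusted p = 0.907).

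The guanylate-binding proteins and immunity-related GTPases, which coat and break up the vacuoles of intracellular pathogens and are classical targets of interferon gamma, had 2 genes lower, 1 higher and 5 that did not pass, against 31.3% lower and 30.6% higher in the table. Gbp2 had 869, 932 and 818 CPM with CX-4945, against 1727, 1822 and 1348 CPM with DMSO, a log2 fold change of -0.90 ± 0.11 (SE, adjusted p = 0.000242). Gbp5, which lies in the same cluster on chromosome 3 and promotes inflammasome assembly, had 152, 152 and 196 CPM with CX-4945, against 290, 295 and 275 CPM with DMSO, a log2 fold change of -0.78 ± 0.10 (SE, adjusted p = 0.000273). The groups of both were wide apart. In the same cluster, Gbp3 averaged 52.4 ± 4.62 CPM with CX-4945 and 47.2 ± 4.23 CPM with DMSO, and Gbp7 averaged 22.4 ± 4.83 CPM with CX-4945 and 22.4 ± 3.66 CPM with DMSO (SD, n = 3 each), with adjusted p of 0.164 and 0.995.

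Iigp1, whose product disrupts the vacuole of Toxoplasma in mice, was the GTPase that rose. It had 4.39, 6.23 and 6.51 CPM with CX-4945, against 3.22, 3.17 and 2.63 CPM with DMSO, a log2 fold change of 0.92 ± 0.18 (SE, adjusted p = 0.00273). Irgm1, a regulator of these GTPases, averaged 47.8 ± 1.81 CPM with CX-4945 and 47.3 ± 6.93 CPM with DMSO (SD, n = 3 each) and did not pass (adjusted p = 0.898). Nor did its relatives Irgm2 (adjusted p = 0.378) and Igtp (0.241). The annotated span of Igtp lies almost wholly within that of Irgm2, so their levels are uncertain: Igtp had 4.56 RPKM with CX-4945 and 5.14 RPKM with DMSO from uniquely placed reads, and the authors' deposited table gives it 22.7 RPKM in both groups.

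The treated libraries differed among themselves in a way that many of these genes shared. The order 6, 2, 4 and the ratio of library 6 to library 4 were not planned and follow the pattern of these same genes. The shares below therefore describe that pattern and do not test it. CX-4945 library 6 was the highest of the 3 for 29 of the 38 genes tested, against 39.7% of all genes, and the order 6, 2, 4 held for 20 of the 38, against 25.1%. Library 4 was the lowest for 20 of the 38, against 37.5%. Library 6 was at least 1.5-fold above library 4 for 11 of the 38, against 5.0% of all genes tested, and at least 2-fold above it for 10, against 1.86%. Of all genes that rose, 21 of 3831 (0.548%) had that spread, and 7 of the 21 belong to the list: Isg15, Xaf1, Oas2, Oasl1, Oasl2, Irf7 and Usp18. Of those that rose with a mean under 5 CPM, 6 of 9 had it, against 2.73% of such genes in the table. The median ratio of library 6 to library 4 was 1.25 over the 38 genes and 1.01 over all genes tested.

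The same ratio was taken in DMSO between libraries 5 and 3, which lie at the ends of the second principal component. Its median was 1.01 over the 38 genes and 0.999 over all genes tested. It was 0.859 over the 15 that rose and 0.849 over all genes that rose with a mean under 5 CPM. Over those 15 the median ratio of CX-4945 library 6 to library 4 was 1.83, against 0.984 over all genes that rose with a mean under 5 CPM. The 15 include 6 genes with a mean of 5 CPM or more, so the sets are not alike in level for either ratio. Neither the B cell markers (51.3, 45.3 and 49.4 CPM with CX-4945) nor the CD8 T cell markers (23.1, 19.1 and 14.2 CPM) followed the order 6, 2, 4 in summed level. The list of dendritic cell markers was highest in library 6, with libraries 2 and 4 nearly level. It had 101, 100 and 128 CPM with CX-4945, against 275, 232 and 312 CPM with DMSO. Most of it was H2-Ab1, with 53.6, 52.1 and 78.2 CPM with CX-4945, against 221, 181 and 253 CPM with DMSO, and 2 of its 7 tested markers, H2-Ab1 and Flt3, fell. The NK cell list had 6.57, 6.01 and 7.34 CPM with CX-4945, against 4.97, 5.05 and 4.83 CPM with DMSO, and both of its 2 tested markers of 6, Klre1 and Eomes, rose. The part of these cells in the spread was not tested. The 7 markers of plasmacytoid dendritic cells, a main source of type I interferon, had summed levels of 41.8 to 47.5 CPM with CX-4945 and 52.8 to 64.5 CPM with DMSO. Of the 3 tested, Runx2 and Lair1 fell and Pacsin1 did not pass. Runx2, a transcription factor also found in T cells, was the most abundant, with 24.7, 27.4 and 21.6 CPM with CX-4945, against 37.0, 35.4 and 41.7 CPM with DMSO. Siglech had 0 reads in all 6 libraries, and Ccr9, Klk1 and Cox6a2 had 0 to 5 reads per group.

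**Figure D3:**
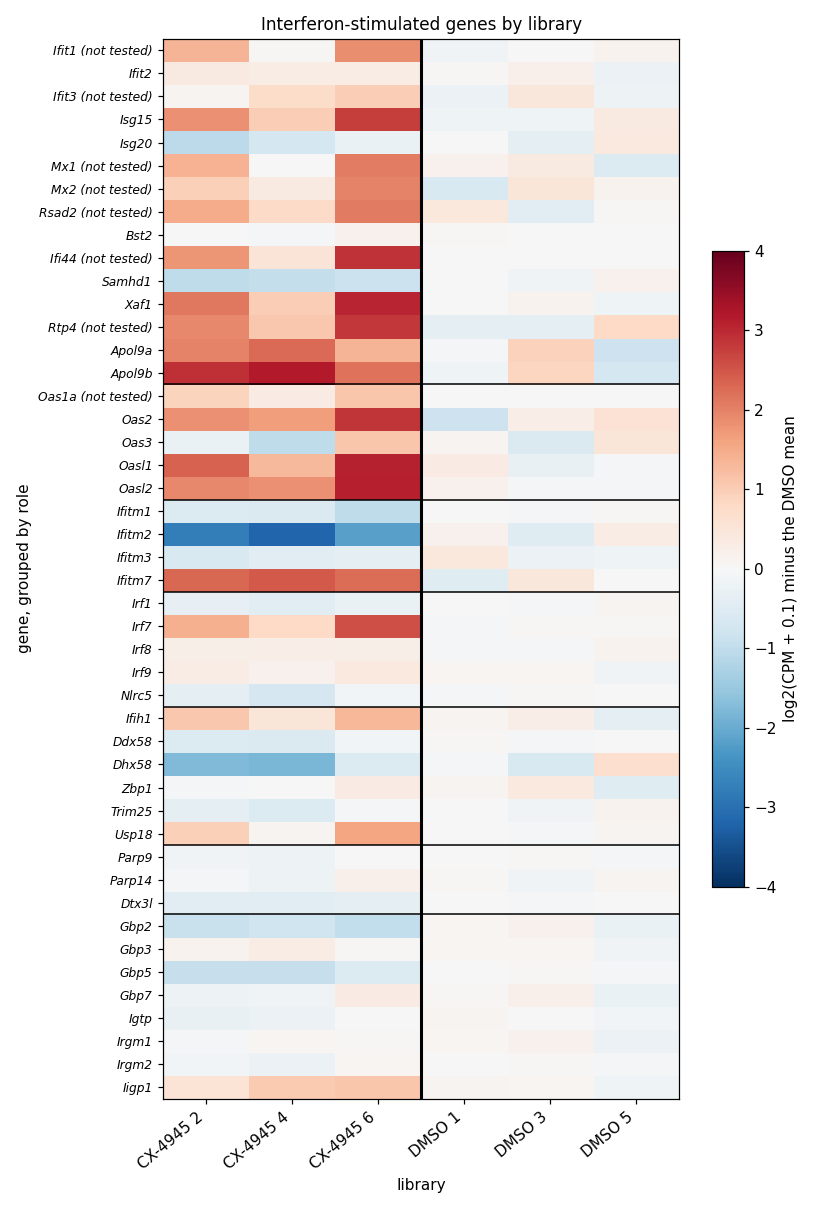
Heat map of log2(CPM + 0.1) minus the DMSO mean for all 46 genes (rows, by role) in the 3 CX-4945 libraries (left) and the 3 DMSO libraries (right); genes with too few reads for the test are marked. Most rows that are red with CX-4945 are darkest in library 6 and palest in library 4, and Apol9a and Apol9b are the reverse.

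**Figure D4:**
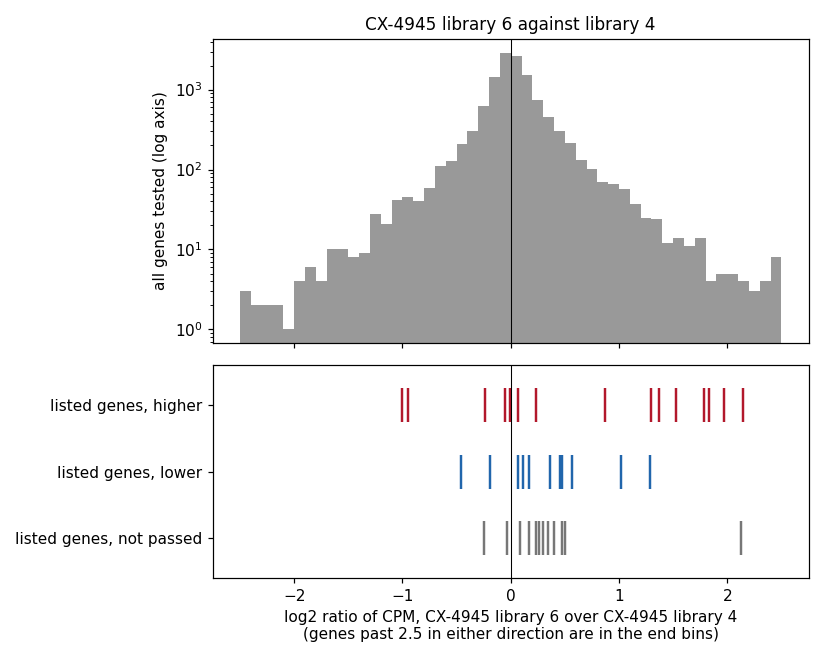
Log2 ratio of CPM in CX-4945 library 6 to library 4, for all genes tested (histogram, log axis) and, below, for the interferon-stimulated genes by call (1 line per gene). Of the 38 genes, 10 lie at or past a ratio of 2 (1 on the axis), as do 1.86% of all genes tested.

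The interferon genes themselves were near absent. Of 19 found in the table, 14 had 0 reads in all 6 libraries, and Ifnb1 had 1 read in CX-4945 library 2 and none elsewhere. A gene without a read in a library could still be present there at up to 0.115 to 0.135 CPM. Ifng was the one gene of the group with enough reads, at 2.10, 1.77 and 1.72 CPM with CX-4945, against 2.01, 2.5 and 0.891 CPM with DMSO. Its groups overlapped, and it did not pass (log2 fold change 0.05 ± 0.33, SE, adjusted p = 0.912).

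Of the 10 receptor, kinase and STAT genes tested, 1 rose and 5 fell, with a median log2 fold change of -0.17, against 30.6% and 31.3% of all genes. Ifngr1, the ligand-binding chain of the interferon gamma receptor, had 164, 149 and 197 CPM with CX-4945, against 365, 345 and 348 CPM with DMSO, and fell by 1.05 ± 0.09 on the log2 scale (SE, adjusted p = 6.09e-05). Jak2, the kinase bound to the gamma receptor's other chain, had 360, 370 and 386 CPM with CX-4945, against 575, 546 and 612 CPM with DMSO, a fall of 0.63 ± 0.06 (SE, adjusted p = 7.29e-05). The groups did not overlap for either gene.

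Jak1, which both receptors use, fell to 426 ± 10.7 CPM with CX-4945, against 534 ± 11.2 CPM with DMSO (SD, n = 3 each, adjusted p = 0.00067). Ifngr2 fell to 90.5 ± 0.561 CPM with CX-4945, against 103 ± 3.64 CPM with DMSO (adjusted p = 0.0113, and 0.0505 without CX-4945 2). Of the genes used in the type I interferon response, these did not pass: Ifnar1 (adjusted p = 0.135), Ifnar2 (0.119), Tyk2 (0.514) and Stat2 (0.304) had log2 fold changes of -0.12, -0.17, -0.06 and -0.15. Ifnar2 passed, lower, without DMSO library 3 (edgeR adjusted p = 0.0153), and Ifnar1 passed, lower, without CX-4945 library 6 (0.0493). Il10rb, a chain shared by the receptors of IL-10 and of lambda interferon, rose by 0.42 ± 0.08 on the log2 scale (SE, adjusted p = 0.00264).

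Among 14 negative regulators of the pathway, all of which were tested, 2 rose and 6 fell, against 30.6% and 31.3% of all genes. Socs3, an inhibitor of JAK kinases downstream of IL-6, was the most abundant at 454, 430 and 457 CPM with CX-4945, against 771, 623 and 882 CPM with DMSO (log2 fold change -0.76 ± 0.11, SE, adjusted p = 0.00061). The phosphatase genes Ptpn2 (-0.53) and Ptpn6 (-0.30) and the repressor Irf2 (-0.33) fell, and Ptpn11 (0.34) and Irf2bp1 (0.52) rose, as log2 fold changes. Upstream of interferon production, 20 genes were tested, of which 9 rose and 6 fell, against 30.6% and 31.3% of all genes. Traf6 (0.64), Rnaseh2b (0.71), Adar (0.60) and Irf3 (0.40) rose, where Rnaseh2b and Adar act to keep the cell's own nucleic acids from being sensed. Ticam1 (-0.64), Rnf125 (-0.72), Nlrx1 (-0.77) and Mavs (-0.34), the adaptor of Rig-I and Mda5, fell. Tmem173, which encodes Sting and was the most abundant of these genes, averaged 357 ± 32.4 CPM with CX-4945 and 322 ± 12.5 CPM with DMSO (SD, n = 3 each) and did not pass (adjusted p = 0.108).

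Other genes responsive to type I interferon, outside the 46, gave 11 higher and 8 lower of 46 tested, with a median log2 fold change of 0.16, both counts below the shares of 30.6% higher and 31.3% lower over all genes. Cmpk2, a mitochondrial nucleotide kinase that neighbours Rsad2, had 1.21, 0.751 and 1.09 CPM with CX-4945, against 0.209, 0.334 and 0.382 CPM with DMSO (log2 fold change 1.71 ± 0.33, SE, adjusted p = 0.00218). Parp12 (1.69), Mndal (1.19) and Ifi35 (0.98) also rose. Epsti1 (-1.15) and Tspo (-0.77) fell.

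Other genes responsive to interferon gamma gave 6 higher and 10 lower of 26 tested, with a median of -0.08, against the same background. Nos2, the inducible nitric oxide synthase, had 12.7, 7.16 and 18.6 CPM with CX-4945, against 49.2, 32.4 and 82.2 CPM with DMSO, and fell by 2.08 ± 0.39 on the log2 scale (SE, adjusted p = 0.00204). Of genes for antigen presentation, B2m (-0.36) and Psmb8 (-0.36) fell and Tapbp (0.38) rose, as did Wars (0.68), a tRNA synthetase gene. Gbp8, a further guanylate-binding protein, fell by 0.93 ± 0.19 (SE, adjusted p = 0.00299).

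In the authors' deposited table, 43 of the 46 genes had a corrected p-value, and the smallest was 0.0752, for Dtx3l. That test was run on transformed values, per the file headers, and gave 48 genes under 0.05 out of 14649 in the authors' deposited table, where edgeR's test on counts gave 7741 of 12502. For Dtx3l the ratio of mean RPKM, CX-4945 over DMSO, is 0.788 in the authors' deposited table.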

How the data were processed

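Counts per gene from 6 CD4+ T cell cultures, 3 with CX-4945 and 3 with DMSO, came from a single table for the whole series. Trizol RNA was made into Illumina libraries by Genewiz, per the labels' protocols. Per the submitters' processing notes, reads were placed on mm10; names of the aligner, annotation and strand setting were not given in the sources used here. The deposited counts are unnormalized whole reads placed at a single locus within exons, per the file headers. The authors' group means in RPKM and their test on transformed values, with its corrected p-value, were deposited too and are quoted only by name. Exon lengths and coordinates are those of the deposited table. Its columns name the group but no replicate number of the labels, so 1 measure per library was used and 84 further per-library columns were left out, among them total exon and intron reads.

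The counts were tested with edgeR 4.0.16 (filterByExpr with minimum count 10 and minimum total 15, TMM, quasi-likelihood F test, two-sided, Benjamini-Hochberg over 12502 genes, threshold 0.05). Standard errors were derived from the log2 fold change and F. CPM uses TMM-scaled totals, and RPKM, computed from the same reads, compares genes. Within a group, chi-square per degree of freedom between libraries was 3.92 to 27.7, so none was a duplicate. DESeq2 1.42.0, RLE size factors, a stricter filter, no filter and leaving out each library were alternatives. The scripts were tested on simulated data. Any of the 46 genes could be named. From each pathway list up to 4 genes a direction with the smallest adjusted p and the most abundant gene were named, with all receptor, JAK and STAT genes and the most abundant gene of a marker list. A few genes that this rule names are not reported here. Other genes were named after their values were seen. The members and lists were chosen with earlier results of these data known. R 4.3.3 and Python 3.11.15 were used.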

Additional observations from a re-analysis of the deposited data

How the results depend on the processing

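No paired analysis was possible because the table's columns carry no replicate number of the labels. For the same reason the alternatives with total exon reads and with intron reads were not run. The count of interferon-stimulated genes that rose, 15, was 14 to 19 with DESeq2, RLE size factors or no filter. With at least 5 CPM required in 3 libraries it was 5, and that filter kept 27 of the 38 genes. Apol9b, Ifitm7 and Irf7 had every DMSO library under 5 CPM and passed that filter through their CX-4945 libraries. Their part in the count of 5 is therefore not independent of the filter. The count that rose ranged from 12 to 18 on leaving out 1 library. The count that fell, 11, was 10 to 12 with those 4 settings and ranged from 7 to 13 on leaving out 1 library, with 7 without CX-4945 library 2 or library 4. In every one of the 6 fits with a library left out, 12 of the 15 and 7 of the 11 kept their call. Over all genes tested, 30.6% rose and 31.3% fell in the main fit. Their shares with a library left out were not counted, so whether these losses are particular to the list cannot be told. Ifit2 lost its call with DESeq2 and with both other filters. Ifitm3 passed without DMSO library 3, and Trim25 without DMSO library 3 or CX-4945 library 6.

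The genes that changed sign had not passed the test. The stricter filter gave log2 fold changes of -0.016 for Gbp7 and -0.0011 for Irgm1. With a library left out the ranges were -0.024 to 0.093 for Bst2, -0.65 to 0.52 for Oas3, -0.15 to 0.26 for Zbp1, -0.13 to 0.073 for Parp14, -0.19 to 0.11 for Gbp7, -0.099 to 0.099 for Irgm1 and -0.28 to 0.36 for Ifng. The cause was not tested. Depth limits the 8 untested genes and the interferon genes most, since a single read is a large share of their counts. Leaving out each library in turn for the read ratios of those 8 genes was chosen after seeing the data.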

Other observations

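Outside the list, 14 genes rose with CX-4945 and had library 6 at least 2-fold above library 4, and they were picked after their values were seen. Among them Trim30d, a member of a mouse TRIM gene cluster, had 4.56, 3.71 and 10.2 CPM with CX-4945, against 3.01, 2.92 and 3.35 CPM with DMSO (edgeR log2 fold change 1.00 ± 0.36, SE, adjusted p = 0.0378). Chac1, a glutathione-degrading enzyme gene that the stress factor Atf4 induces, had 10.4, 6.36 and 13.1 CPM with CX-4945, against 3.09, 3.05 and 3.10 CPM with DMSO (1.70 ± 0.25, adjusted p = 0.000589). Hap1, which encodes the huntingtin-associated protein, had 11.9, 8.04 and 20.4 CPM with CX-4945, against 3.26, 2.96 and 3.22 CPM with DMSO (2.10 ± 0.32, adjusted p = 0.000705). Nupr1 (1.57), Slc7a3 (1.14) and Aldh1l2 (1.18) rose with the same spread. Library 6 lies above library 4 in these genes because they were picked for it, so no conclusion is drawn from their order. Over all genes tested, the order 6, 2, 4 held for 25.1%.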
